A study of Mus musculus with 12 samples.

Results

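The complement system is represented here by 9 genes picked by symbol from the table of the series: the 3 chains of C1q (C1qa, C1qb and C1qc), the protease C1r (C1ra), the central component C3, factor B (Cfb), properdin (Cfp), and the receptors for the fragments C3a (C3ar1) and C5a (C5ar1). All 9 were found among 32544 genes, and all 9 were among the 14285 genes that passed the filter on low counts. The question was which of these genes were expressed by macrophages and which by fibroblasts, and whether either cell type expressed them differently under the PHD2cko label. RNA had been sequenced from murine bone marrow-derived macrophages (BMDMs) at 24 h after seeding and from fibroblasts of the established mouse line 3T3 after 72 h in medium that BMDMs had conditioned for 24 h. There were 3 libraries in each of 4 groups, namely BMDM WT, BMDM PHD2cko, 3T3 in medium from WT BMDMs (WT medium) and 3T3 in medium from PHD2cko BMDMs (PHD2cko medium). PHD2cko BMDMs came from mice with floxed PHD2 and LysMCre, a Cre driven by the myeloid lysozyme M promoter. WT BMDMs carried the same Cre without the floxed gene, and both lacked the LDL receptor and had a C57Bl6/J background. BMDMs and conditioned medium contained 15% L929-conditioned medium, and the conditioned medium 2% serum. L929 is itself a mouse fibroblast line. Neither the labels nor the methods say whether the 3 libraries of a group came from separate mice or cultures, so the p-values measure the spread between these libraries. Medium had been conditioned in normal oxygen or in hypoxia, and which of these the sequenced cultures received was not given in the sources used here.

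Complement is a cascade of plasma and tissue proteins that tags and lyses targets and calls in leukocytes. In the classical pathway C1q binds antibody, dying cells or modified lipoprotein, upon which the attached protease C1r cleaves C1s, which in turn cleaves C4 and C2. All pathways meet in the cleavage of C3, which the alternative pathway amplifies through factor B, with properdin stabilizing the convertase. The released peptides C3a and C5a act on G protein-coupled receptors of myeloid cells. The liver makes most plasma complement, but macrophages are known as the main source of C1q, and complement is deposited in atherosclerotic plaque.

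On the mouse genome GRCm38 the C1q chains lie next to each other on the minus strand, within 18.7 kb of chromosome 4 (136880129 to 136898803). C1ra lies with C1rb, C1rl, C1s1 and C1s2 within 143.0 kb of chromosome 6 (124493113 to 124636085), and C5ar1 lies next to C5ar2 on chromosome 7 (16234585 to 16259540 with both). The remaining genes are on chromosome 17 (C3, 57203970 to 57228136, and Cfb, 34856374 to 34862518), chromosome X (Cfp, 20925454 to 20931555) and chromosome 6 (C3ar1, 122847138 to 122856161). RefSeq gave the 250 bases before the transcript start for 7 of the 9 genes, with C1qa and Cfb missing. Below are the upstream sequences of a gene found in macrophages (C1qb, chr4:136886201-136886450, minus strand), of a gene found in both cell types (C3, chr17:57228137-57228386, minus strand) and of the fibroblast gene C1s1 (chr6:124542360-124542609, minus strand). The 3 printed windows are from GRCm38.p6, lie outside the annotated gene, and are written 5′ to 3′. Capitals mark matches, on either strand, to GAGGAA, the core bound by ETS factors such as the myeloid factor PU.1, and to the C/EBP pattern TTGCNNAA. RefSeq gives C1s1 a second window (chr6:124542322-124542571), which reaches 38 bases into the annotated gene and holds no match to either, and it is not printed.
C1qb: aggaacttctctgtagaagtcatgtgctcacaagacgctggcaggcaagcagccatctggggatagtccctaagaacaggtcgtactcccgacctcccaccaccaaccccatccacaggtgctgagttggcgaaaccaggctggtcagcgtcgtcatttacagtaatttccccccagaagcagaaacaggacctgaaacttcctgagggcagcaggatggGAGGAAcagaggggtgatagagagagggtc
C3: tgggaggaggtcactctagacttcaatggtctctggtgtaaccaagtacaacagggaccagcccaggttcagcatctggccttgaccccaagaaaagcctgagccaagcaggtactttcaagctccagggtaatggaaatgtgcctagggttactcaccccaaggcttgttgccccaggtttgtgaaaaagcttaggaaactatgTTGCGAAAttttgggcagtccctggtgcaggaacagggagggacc
C1s1: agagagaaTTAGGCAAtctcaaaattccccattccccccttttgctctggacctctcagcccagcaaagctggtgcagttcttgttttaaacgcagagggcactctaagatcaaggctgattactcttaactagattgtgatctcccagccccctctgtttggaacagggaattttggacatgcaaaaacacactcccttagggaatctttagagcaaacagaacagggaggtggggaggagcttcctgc
GAGGAA occurred in C1qb and in C1qc, and not in these windows of C1ra, C3, Cfp, C3ar1 or C5ar1, and 23.3% of 32851 mouse promoters of this length held it. The C/EBP pattern occurred in C3 among the 7 genes, and in 9.56% of all promoters. The core ACGTG of the hypoxia response element was in none of the 7 windows and in 16.6% of all promoters, and neither the core of the interferon-stimulated response element (2.98% of all) nor the STAT pattern TTCNNNGAA (7.02%) was in any. A broad NFκB pattern was in 5 of the 7 windows, those of C1qb, C1qc, C3, Cfp and C3ar1, and in 45.8% of all promoters. The windows of C1qc, C1ra and C5ar1 reached 151, 216 and 202 bases into the GENCODE gene.

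Library totals were between 15516465 and 25199770 counts. All 23 macrophage markers were higher in BMDM WT than in 3T3 in WT medium, and 12 of 13 fibroblast markers were lower. Egln1, which encodes PHD2, had a mean of 55.4 counts scaled to a library of 1e+06 (CPM) in BMDM WT and 69.6 CPM in BMDM PHD2cko and was thus higher in the libraries labelled PHD2cko (log2 fold change 0.33, SE 0.0527, adjusted p = 0.00203). The table has no values per exon, so this level does not check the deletion of part of the gene. Of 6 hypoxia-inducible targets, 6 were higher in the libraries labelled PHD2cko, such as Egln3 (4.32 against 16.8 CPM) and Bnip3 (34.9 against 63.0 CPM). Directions below are those of the labels.

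In BMDM WT, 8 of the 9 complement genes were expressed more strongly than in 3T3 in WT medium and C1ra was expressed less. All 9 passed the threshold of 0.05 on the adjusted p, with 85.3% of all genes tested passing in this comparison (40.4% higher and 44.9% lower in BMDM WT). The median log2 difference was 10.23 over the 9 genes and -0.08 over all genes tested.

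**Figure D1:**
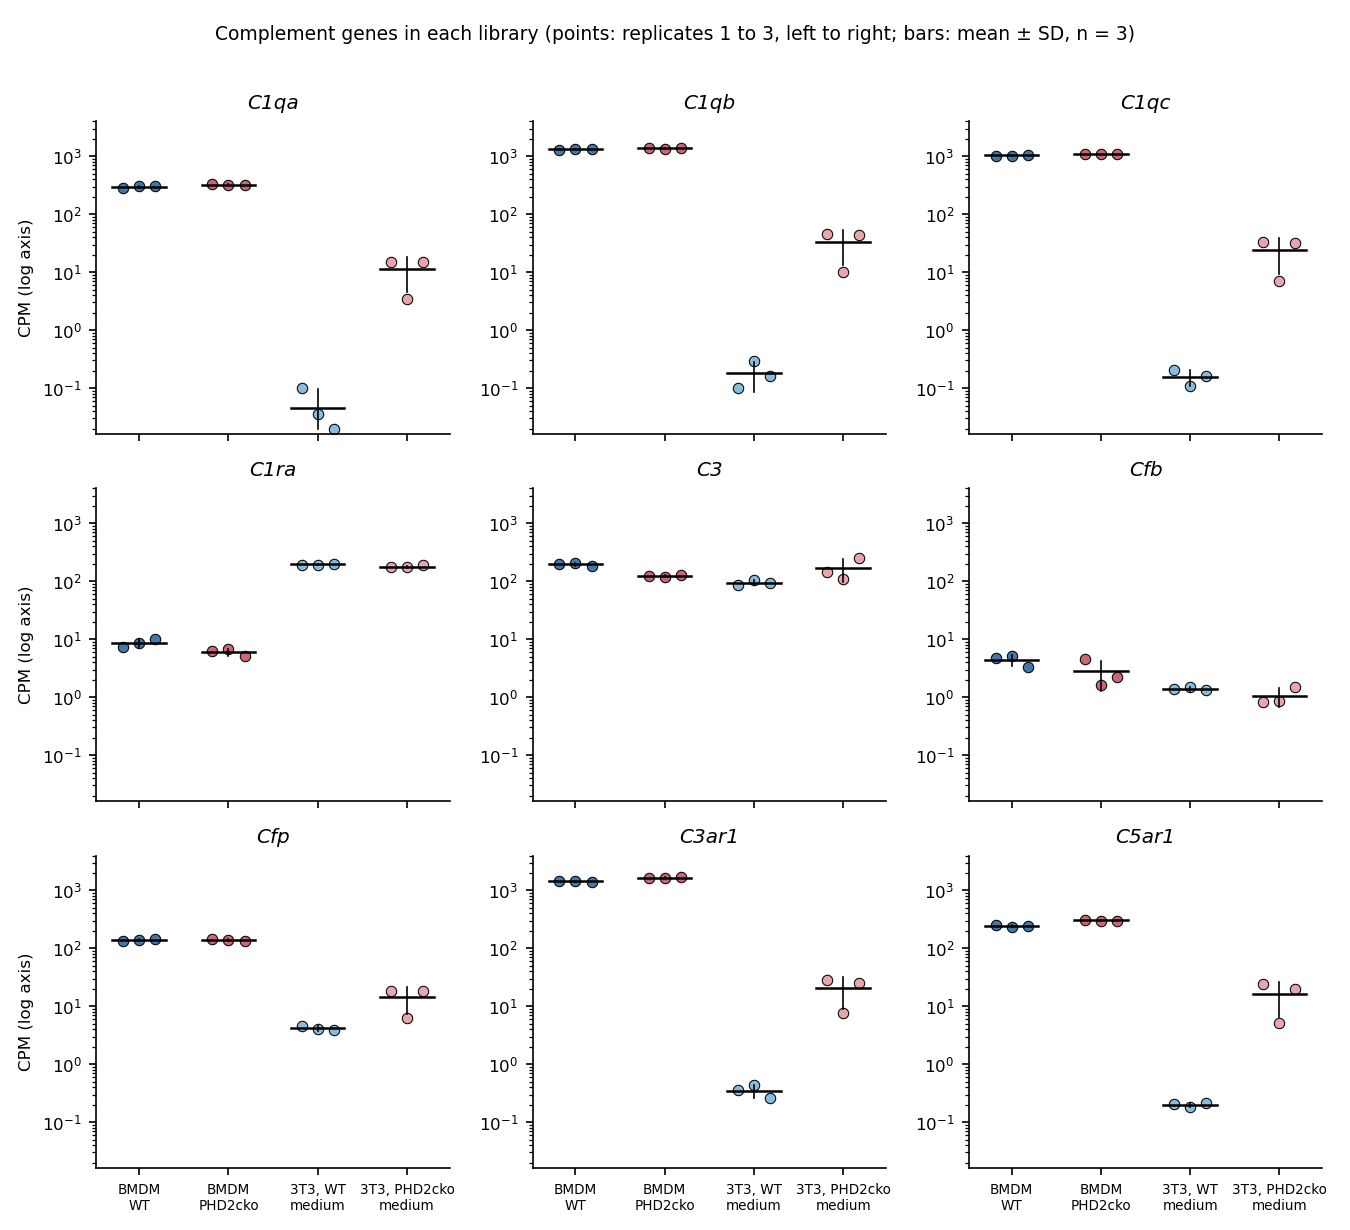
Level of each of the 9 complement genes in CPM on a log axis, with 1 point for each library and bars for the mean and SD of 3 libraries. C1q chains and both receptors were at 238 to 1712 CPM in BMDMs and below 0.5 CPM in 3T3 in WT medium, C1ra had the opposite pattern, and C3 was above 80 CPM in all 12 libraries (0 counts are drawn at 0.02 CPM).

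The C1q chains were nearly exclusive to macrophages. C1qa, the A chain, was counted 4360, 4988 and 5013 times in the 3 BMDM WT libraries and 2, 1 and 0 times in 3T3 in WT medium. Over the pooled counts this was a ratio of 5428 (95% interval 1857 to 26322, counting error only). C1qb reached 1322 ± 28.4 CPM (SD, n = 3) in BMDM WT and 0.183 ± 0.0966 CPM in 3T3 in WT medium, and C1qc 1037 ± 19.8 and 0.157 ± 0.0474 CPM. The 2 cell types did not overlap for any chain. Per kb of exon, C1qb was the most abundant of the 9 genes in BMDM WT with a level of 1215 ± 26.1 CPM per kb, followed by C1qc (537 ± 10.2), C3ar1 (335 ± 6.93) and C1qa (285 ± 11.4). The level of C1qc depended on the gene model, being 862 CPM per kb with its longest transcript.

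The partner proteases of C1q had the opposite distribution. C1ra was at 195, 193 and 199 CPM in 3T3 in WT medium and at 7.47, 8.48 and 10.0 CPM in BMDM WT, which was a log2 difference of -4.49 (SE 0.0880, adjusted p = 3.34e-14). It was the most abundant of the 9 genes in these fibroblasts, with 65.6 ± 0.938 CPM per kb. C1s1, which encodes the protease cleaved by C1r, was at 583 ± 11.0 CPM in 3T3 in WT medium and at 0.123 ± 0.104 CPM in BMDM WT. C1s2 was at 53.4 CPM against 0.121 CPM, and C1rb was at 10.9 CPM in 3T3 with no count in BMDM WT (at least 207-fold lower, with 3 counts over the group as the floor). C1ra and C1rb, and likewise C1s1 and C1s2, are close copies, so reads may have been split between them. The low C1ra level of BMDMs was 2.88 to 5.13% of that in 3T3 of the same label, while the summed fibroblast markers in the same BMDM libraries were at 0.0127 to 0.0364% of theirs. C1s1 was at 0.0104 to 0.0445%, C1s2 at 0 to 0.342% and Clu, which encodes clusterin, at 0.152 to 0.394%. Of the single markers, Fap, low in both cell types, was at 77.0% or more.

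C3 was the only one of the 9 genes with more than 10 CPM per kb in both cell types of the WT label. It was at 198, 204 and 186 CPM in BMDM WT and at 84.9, 104 and 95.3 CPM in 3T3 in WT medium (log2 difference 1.05, SE 0.220, adjusted p = 0.000602). Factor B was low in both, with 4.67, 5.21 and 3.29 CPM against 1.37, 1.52 and 1.32 CPM (log2 difference 1.63, SE 0.338, adjusted p = 0.000543), resting on 25 to 86 counts per library. Properdin was mainly a macrophage transcript, with 138 ± 5.33 CPM in BMDM WT, but 3T3 in WT medium had 74 to 110 counts per library, or 4.18 ± 0.394 CPM. As a percent of the BMDM level, with normalization factors, this was 2.84 to 3.36%, or 3.43 to 4.01% over the total count. The 23 macrophage markers summed to 0.0485 to 0.0541% in the same 3 libraries, or 0.0580 to 0.0654% over the total count. The highest of the 23 single markers were Aif1, at 2.00, 2.38 and 3.98%, and Cd14, at 1.68, 1.23 and 1.08%. All others were far below Cfp, with Lcp1 next at 0.279, 0.397 and 0.418% over the total count.

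Both anaphylatoxin receptors were macrophage transcripts. C3ar1 was the most abundant of the 9 genes by CPM in BMDM WT, at 1444 ± 29.8, and had 5 to 12 counts per library in 3T3 in WT medium (0.352 ± 0.0856 CPM). C5ar1 was at 244 ± 5.57 CPM in BMDM WT and had 4 to 5 counts per library in 3T3 in WT medium (0.199 ± 0.0156 CPM). Their log2 differences were 11.93 and 10.23 (adjusted p = 5.78e-11 and 5.35e-10). The order of the 9 genes per kb in BMDM WT was completed by C5ar1 (94.9 ± 2.17), Cfp (79.4 ± 3.07), C3 (38.1 ± 1.80), C1ra (2.91 ± 0.435) and Cfb (1.55 ± 0.351), and no neighbours in this order overlapped within 1 SD. In 3T3 in WT medium C1ra was followed by C3 (18.4 ± 1.89), Cfp (2.41 ± 0.227), and Cfb (0.498 ± 0.0371), and the C1q chains and receptors, of which C1qb was highest (0.169 ± 0.0888), were within 1 SD of one another.

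**Figure D2:**
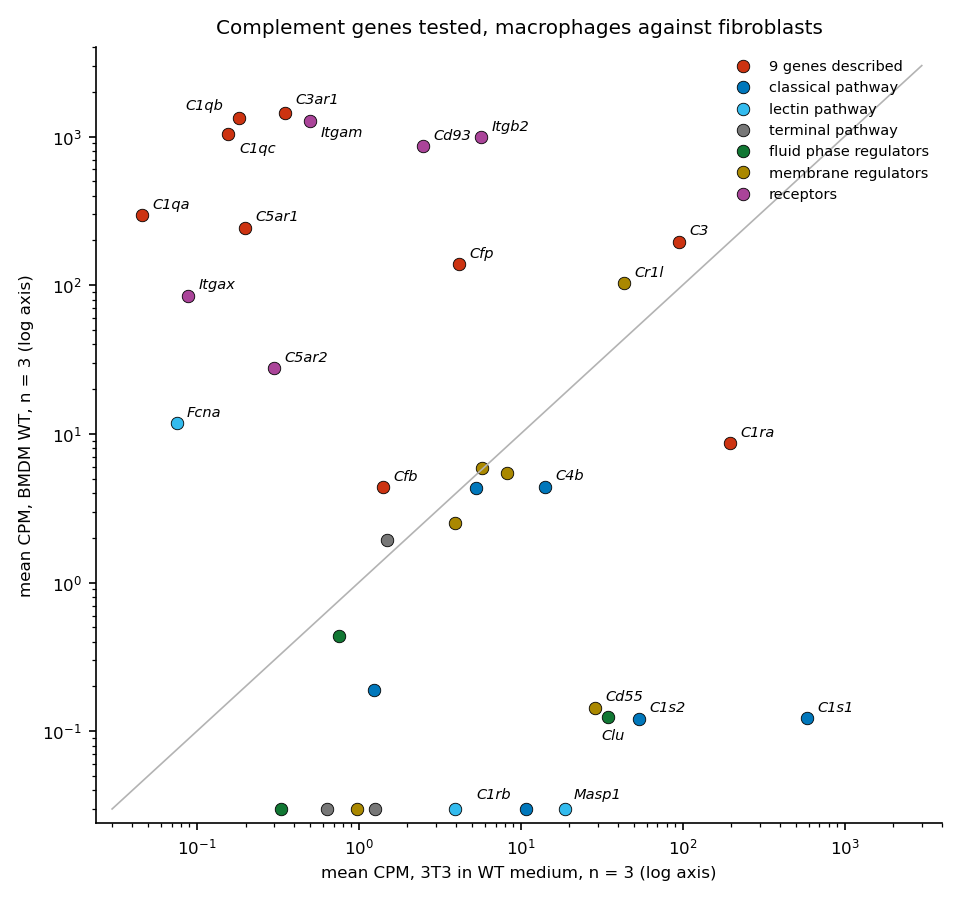
Mean CPM in BMDM WT (y axis, log) against 3T3 in WT medium (x axis, log) for the 35 complement genes shown, 3 libraries each, with the diagonal marking equal levels and means below 0.03 CPM drawn at 0.03. C1q chains, receptors and Cfp lie far above the diagonal, C1ra, C1s1, C1s2, Clu and Cd55 far below it, and C3 and Cr1l near it.

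Among 41 further complement genes, 40 were in the table and 26 were tested. Compared with 3T3 in WT medium, 7 were higher in BMDM WT, 16 were lower and 3 did not pass, while 85.3% of all genes passed (40.4% higher and 44.9% lower). The higher ones were the ficolin Fcna, the membrane regulator Cr1l, and 5 of 5 receptors tested (C5ar2, Itgam, Itgax, Itgb2 and Cd93). Itgam and Itgb2, which together form complement receptor CR3, were at 1277 ± 22.3 and 989 ± 7.64 CPM in BMDM WT and at 0.503 ± 0.270 and 5.67 ± 0.239 CPM in 3T3 in WT medium. The classical pathway genes C1rb, C1s1, C1s2, C2 and C4b were all lower in BMDM WT (5 of 6 tested, C1rl not passing), and so were the lectin pathway protease Masp1 (0 counts against 18.9 ± 3.27 CPM, at least 370-fold), Clu, which encodes the terminal complex inhibitor clusterin (0.124 against 34.6 CPM), and Cd55, which encodes decay-accelerating factor, a membrane regulator of the convertases (0.144 against 29.0 CPM). C4b was at 4.41 ± 0.523 CPM in BMDM WT and 14.1 ± 1.16 CPM in 3T3, and as C4a was not analysed here, its counts may include reads of that close copy. Cr1l, the rodent membrane regulator Crry, was found in both cell types (103 ± 2.15 and 43.2 ± 0.846 CPM).

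In BMDMs, C1ra was lower in the libraries labelled PHD2cko than in WT, and the other 8 genes did not pass the threshold in the fit of all 12 libraries (1 of 9 genes called, with 6.73% of all genes passing and 3.35% passing as lower). C1ra was at 6.25, 6.69 and 5.14 CPM in the libraries labelled PHD2cko, all below the 7.47 to 10.0 CPM of WT (log2 fold change -0.54, SE 0.119, adjusted p = 0.0161). The call was lost without replicate 3 of WT (adjusted p = 0.0704) and without replicate 3 of PHD2cko (adjusted p = 0.0789). The median log2 fold change was 0.05 over the 9 genes and 0.00 over all genes tested.

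C3 was at 123, 118 and 130 CPM in the libraries labelled PHD2cko and at 198, 204 and 186 CPM in WT. These groups did not overlap (log2 fold change -0.66, 95% interval -1.14 to -0.19, adjusted p = 0.101). C5ar1 was at 312, 296 and 302 CPM in the libraries labelled PHD2cko against 244 ± 5.57 CPM in WT, without overlap (log2 fold change 0.31, interval -0.23 to 0.86, adjusted p = 0.590). C3ar1 was at 1660 ± 46.4 against 1444 ± 29.8 CPM (0.20, interval -0.39 to 0.79, adjusted p = 0.789), again without overlap. C1qa was at 326 ± 3.43 against 297 ± 11.9 CPM (0.13, interval -0.37 to 0.64, adjusted p = 0.848). The groups did not overlap for 7 of the 9 genes, which 31.9% of all genes tested showed in this comparison. Cfb (4.49, 1.64 and 2.26 against 4.67, 5.21 and 3.29 CPM) and Cfp (140 ± 7.34 against 138 ± 5.33 CPM) overlapped.

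These intervals rested on a spread shared by all 12 libraries, whose part in which genes passed was not tested. With the 6 BMDM libraries fitted alone, 5 of the 9 genes passed, with 20.6% of all genes passing in that fit. C3 (adjusted p = 2.57e-08) and C1ra (0.0148) were lower, and C5ar1 (1.87e-06), C3ar1 (0.000191) and C1qa (0.00588) were higher, with log2 fold changes that differed from those above by less than 0.01. C1qc (adjusted p = 0.0774), C1qb (0.263), Cfb (0.138) and Cfp (0.790) did not pass in that fit either. When all libraries except replicate 2 of 3T3 in PHD2cko medium were fitted, C1ra, C3, C3ar1 and C5ar1 passed. In that fit 559 of 14504 genes passed as higher and 575 as lower. Without replicate 1 of 3T3 in WT medium instead, 920 of 14488 genes passed as higher and 969 as lower.

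**Figure D3:**
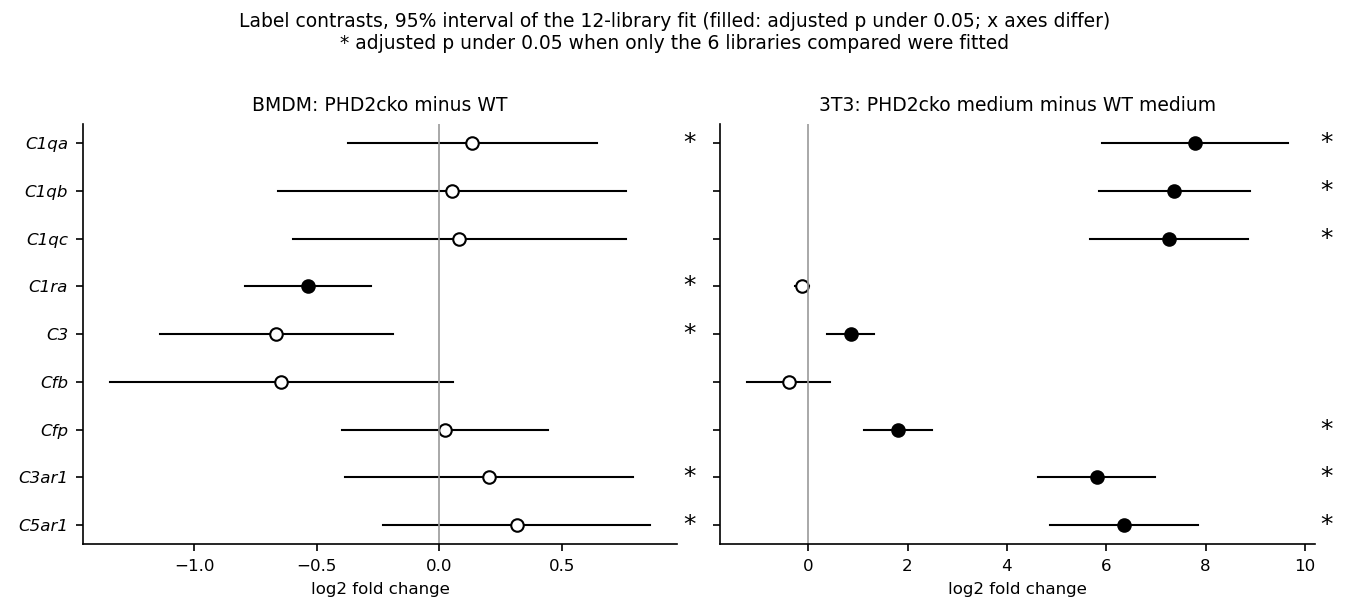
Log2 fold changes (points) with 95% intervals (lines) of the 9 complement genes for the PHD2cko label in BMDMs (left) and in 3T3 by the medium received (right, wider x axis), from the fit of 12 libraries. Filled points passed the threshold, 1 on the left and 7 on the right, and stars mark the 5 and 6 genes that passed when only the 6 libraries compared were fitted.

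In 3T3, 7 of the 9 genes were higher in PHD2cko medium than in WT medium and none was lower, with 15.7% of all genes passing in this comparison (8.93% higher). The 7 were the C1q chains, both receptors, properdin and C3, and the median log2 fold change was 5.81 over the 9 genes and -0.00 over all genes tested. C1qa had 294, 60 and 315 counts in the 3 libraries in PHD2cko medium against 2, 1 and 0 in WT medium, a ratio of 264 over the pooled counts (95% interval 89.9 to 1283). C1qb had 900, 172 and 905 counts against 2, 8 and 3 (log2 fold change 7.37, SE 0.700, adjusted p = 6.44e-05). For each chain the library with the fewest counts was replicate 2, and the groups did not overlap, which 31.9% of all genes tested showed in this comparison.

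C3ar1 had 562, 130 and 520 counts in PHD2cko medium and 7, 12 and 5 in WT medium (log2 fold change 5.81, SE 0.540, adjusted p = 5.95e-05). C5ar1 had 464, 90 and 416 counts against 4, 5 and 4 (log2 fold change 6.35, SE 0.689, adjusted p = 0.000120). Properdin was at 18.4, 6.25 and 18.5 CPM against 4.63, 3.99 and 3.91 CPM (log2 fold change 1.81, SE 0.311, adjusted p = 0.00193). Replicate 2 was again the lowest of the libraries in PHD2cko medium for all 3 genes.

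These 6 macrophage-type transcripts were higher together with most markers of macrophages. Of 23 macrophage markers, 22 were higher in PHD2cko medium, and summed, in CPM over the total count without normalization factors, they made up 2.44, 0.556 and 2.16% of the level in BMDM PHD2cko in the 3 libraries, against 0.0580, 0.0617 and 0.0654% of BMDM WT in WT medium (mean 1.72 ± 1.02% against 0.0617 ± 0.00372%). Their part in the higher level of the 6 genes was not tested. For the share itself, an exact two-sided permutation test gave p = 0.1, the smallest that 3 against 3 libraries allow. In bulk RNA, more macrophages among the fibroblasts and more of these transcripts per cell cannot be told apart. Of other cell types, the neutrophil markers summed to at most 0.216 CPM in 3T3, with 3 of 8 genes at 0 in every library in PHD2cko medium, and the 5 dendritic cell markers tested did not pass. Of 3 B cell markers tested, Ighm was higher, and of 3 T cell markers tested, Lck was lower. Fibroblast markers summed to 22413 to 24785 CPM in WT medium and to 29459 to 30394 CPM in PHD2cko medium, with 4 of 13 higher and 1 lower.

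On the same scale of CPM over the total count, single macrophage markers differed widely in their level, from 0.180% (Clec7a) to 15.6% (Cd14) of the BMDM level in replicate 1 in PHD2cko medium, with a median of 3.28%. In this library C5ar1 was at 9.70%, C1qa at 5.72%, C1qb at 4.16%, C1qc at 3.80% and C3ar1 at 2.15%. In replicate 3 they were at 8.14, 5.74, 3.92, 3.56 and 1.86% in the same order, and in replicate 2 at 2.10, 1.30, 0.888, 0.781 and 0.555%. The order of the 5 genes was thus the same in the 3 libraries. Of the 23 markers, 4 were above C1qa in each of the 3 libraries, 1 to 4 were above C5ar1, and 15 or 16 were above C3ar1. Cfp, at 16.2, 5.46 and 16.2% in replicates 1 to 3, was outside the range of the markers in replicates 1 and 3. There it was above the highest marker, Cd14 (15.6 and 12.6%), while in replicate 2 it was below Aif1 (5.93%).

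**Figure D4:**
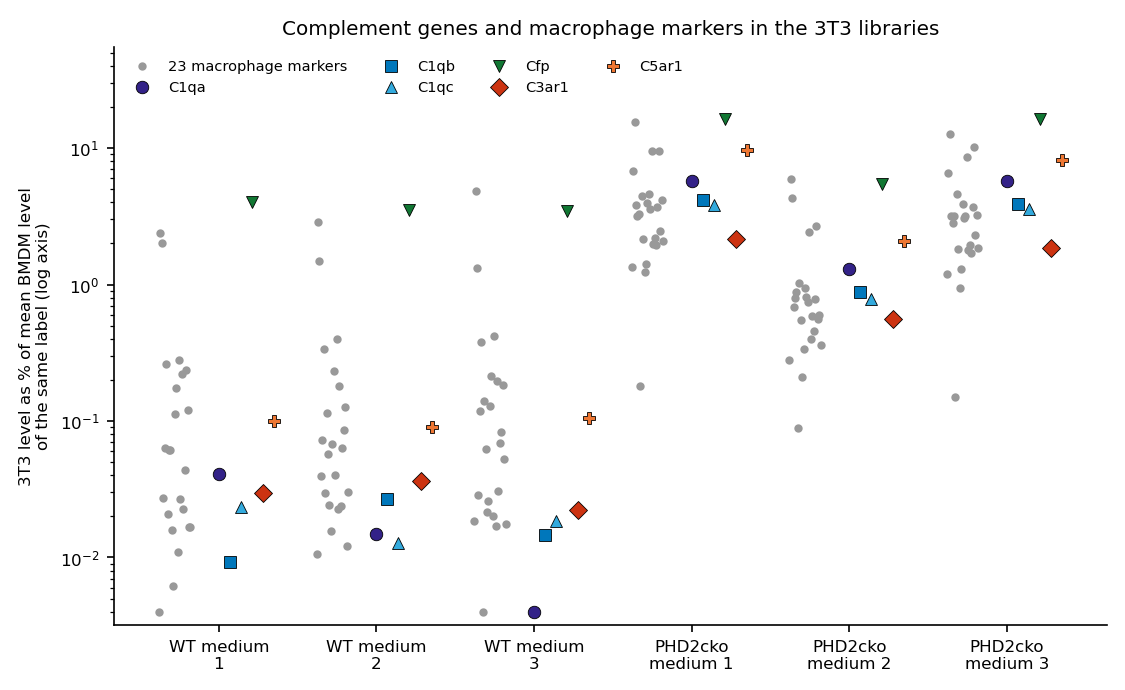
Level in each of the 6 3T3 libraries as a percent of the mean BMDM level of the same label, both in CPM over the total count, on a log axis, for 23 macrophage markers (grey) and 6 complement genes (coloured), with 0 drawn at 0.004%. In PHD2cko medium the C1q chains and both receptors lie within the range of the markers in every library, and replicate 2 is lowest for all 6 genes. Cfp lies above 3% in all 6 libraries, and above all 23 markers in replicates 1 and 3 in PHD2cko medium.

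The chains of C1q stood in another proportion to one another in these fibroblast libraries than in BMDMs. C1qb had 4.18 to 4.57 counts for each C1qa count in the 6 BMDM libraries and 3.06, 2.87 and 2.87 in 3T3 in PHD2cko medium (95% intervals 2.68 to 3.50, 2.13 to 3.91 and 2.52 to 3.28, counting error only). For C1qc the ratios were 3.33 to 3.63 in BMDMs and 2.24, 2.02 and 2.09 in 3T3 in PHD2cko medium. Ratios in 3T3 were below all those in BMDMs for both chains, and were not formed in WT medium, where C1qa had at most 2 counts.

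A macrophage share was also subtracted from each 3T3 library, as its summed marker percent times the mean BMDM profile of the same label. By construction, counts are left only for a gene whose percent of the BMDM level exceeds the summed marker percent. What was left thus follows from the percents above, and the source of these transcripts was not tested. In PHD2cko medium counts of the C1q chains, C5ar1 and Cfp were left, and these stayed higher there (6 of the 9 genes with C3, with 6.78% of all genes higher). C1qa had 168, 34 and 196 counts left in PHD2cko medium, while the 3 chains had 0 counts left in every library in WT medium. C3ar1 was left with 0 counts in all 6 libraries and no difference was left. Of the 23 macrophage markers themselves, 12 stayed higher and 1 became lower.

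C3 differed from the macrophage-type transcripts in 3T3. It was at 147, 111 and 257 CPM in PHD2cko medium and at 84.9, 104 and 95.3 CPM in WT medium (log2 fold change 0.85, SE 0.219, adjusted p = 0.0197). The groups did not overlap, as for 31.9% of all genes, and replicate 3 in PHD2cko medium was far above the others. With 1 library left out at a time, the log2 fold change was 0.44 to 1.09 and passed each time. With the macrophage share subtracted it was 0.88 (adjusted p = 0.0197), while with the 6 3T3 libraries fitted alone it was 0.87 and did not pass (adjusted p = 0.114, with 6.82% of all genes passing in that fit). Relative to BMDM PHD2cko, C3 in these libraries was at 119, 89.7 and 208% (147, 110 and 255% over the total count), against 0.454 to 1.98% for the summed macrophage markers (0.556 to 2.44%).

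C1ra and Cfb did not pass in 3T3. C1ra was at 176, 173 and 187 CPM in PHD2cko medium against 195, 193 and 199 CPM in WT medium (log2 fold change -0.13, SE 0.0664, adjusted p = 0.219). It was lower without overlap, and groups did not overlap for 31.9% of all genes. Cfb was at 0.822, 0.868 and 1.50 CPM against 1.37, 1.52 and 1.32 CPM (log2 fold change -0.39, interval -1.23 to 0.44, adjusted p = 0.543). Per kb, C1ra (60.0 ± 2.56) remained the most abundant of the 9 genes in 3T3 in PHD2cko medium, followed by C3 (33.3 ± 14.8) and C1qb (30.6 ± 18.7), which did not differ from each other beyond their spread.

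The difference between the label effects of both cell types was tested as an interaction. It passed for 7 of the 9 genes, each with a larger log2 fold change in 3T3, and for 12.3% of all genes (7.71% in that direction). For C3 the 2 effects had opposite signs, -0.66 in BMDMs and 0.85 in 3T3, and differed by 1.52 (SE 0.309, adjusted p = 0.00618). C1ra had effects of -0.54 and -0.13, which differed by 0.41 (adjusted p = 0.0748), and Cfb of -0.64 and -0.39, which differed by 0.25 (adjusted p = 0.826).

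Of the 26 further complement genes tested, 2 passed for the label in BMDMs, where 6.73% of all genes did, and both were receptor genes. C5ar2, the second C5a receptor and the neighbour of C5ar1, was at 36.5 ± 1.58 CPM in the libraries labelled PHD2cko against 27.7 ± 0.708 CPM (log2 fold change 0.40, SE 0.0827, adjusted p = 0.0111). Itgax, which encodes CD11c, the alpha chain of complement receptor CR4, was at 117, 123 and 129 CPM against 86.5, 83.4 and 85.0 CPM (0.54, SE 0.130, adjusted p = 0.0262). The call of Itgax was lost when any 1 of the 6 BMDM libraries was left out (adjusted p = 0.0898 to 0.134), and that of C5ar2 without replicate 1 of WT (0.0685) or replicate 3 of PHD2cko (0.0690). With the 6 BMDM libraries fitted alone both passed (adjusted p = 1.74e-07 for Itgax and 5.01e-05 for C5ar2, with 20.6% of all genes passing). In 3T3, 6 of 26 were higher in PHD2cko medium and none lower, against 8.93% higher and 15.7% passing over all genes, namely the 5 receptors C5ar2, Itgam, Itgax, Itgb2 and Cd93, and Vtn, which encodes vitronectin, an inhibitor of the terminal complex. Itgam rose from 0.503 ± 0.270 to 27.5 ± 16.0 CPM, with replicate 2 lowest at 9.03 CPM. Itgax had 1 count in replicate 2 in PHD2cko medium and thereby overlapped with WT medium. After subtraction of the macrophage share, with the limit given for the 9 genes, Itgam, Itgb2, Cd93 and Vtn still passed and C5ar2 and Itgax did not. Vtn, with 18, 14 and 22 against 9, 6 and 6 counts, had 0 to 1 counts per library in BMDMs (log2 fold change 1.52, SE 0.373, adjusted p = 0.0201). Its call was lost in 4 of 12 fits with 1 library left out, namely without replicate 2 or 3 in WT medium or replicate 1 or 3 in PHD2cko medium (adjusted p = 0.0561 to 0.0889), and that of Itgax without replicate 3 in PHD2cko medium (0.0810). Itgax also missed the threshold with limma-voom (2.38, adjusted p = 0.143), as did C5ar2 with the 6 3T3 libraries fitted alone (1.54, adjusted p = 0.0641). The proteases C1s1 (545 ± 37.8 against 583 ± 11.0 CPM), C1s2, C1rb and Masp1 did not pass in either cell type, nor did the membrane regulators Cd55, Cd46, Cd59a, Cd59b, Cd55b and Cr1l.

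The genes most like each of 4 complement genes were sought among 14284 genes by the root mean square difference of centred log2 CPM over the 12 libraries. Nearest to C1qa were Kctd12 (0.38), the mannose receptor gene Mrc1 (0.41), which is among the 23 markers, and the protease gene Ctsc (0.44), and nearest to C5ar1 were Lilrb4a (0.21), Cd72 (0.25) and Ckb (0.26). All 6 were above 250 CPM on average in both BMDM groups, below 1 CPM in 3T3 in WT medium, and between 7.32 CPM (Ctsc) and 45.4 CPM (Lilrb4a) in 3T3 in PHD2cko medium. For C3 the nearest were Zfand4 (0.30), Igsf9 (0.31) and Ly6h (0.31), all below 6 CPM in every group, and for Cfb they were Cdkl2 (0.37), Pabpc1l (0.38) and the transglutaminase gene Tgm2 (0.39).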

How the data were processed

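The authors deposited estimated counts per gene, made with kallisto on GRCm38 (version not given in the sources used here), without normalization. The deposited values are whole numbers, so none was rounded, and 0 columns could not be mapped to a group by name. Genes were kept by filterByExpr over the 4 groups (14285 of 32544), library sizes were scaled by TMM, and all 12 libraries were fitted as 4 groups with edgeR 4.0.16 in R 4.3.3 by the quasi-likelihood test, with two-sided p-values adjusted by Benjamini-Hochberg across the kept genes, and 0.05 as threshold. CPM are counts over the scaled library size. SE is the log2 fold change divided by the root of F, and intervals are 95%. A group at 0 counts was given a floor of 3 counts over the group. Intervals on counts and floors cover counting error only. Levels per kb were divided by the union of exons in GENCODE on GRCm38.

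A further complement gene is not reported here. The 9 genes and the lists of complement genes and markers were chosen with earlier results of these data known. The text names the 9 genes, other complement genes past the threshold or at 10 CPM or more in any group, the 3 genes nearest to each of C1qa, C3, Cfb and C5ar1, Egln1 and hypoxia-inducible targets. Other genes are named where a list is counted out. Macrophage shares, sums of markers in CPM, percents ranked against the markers and the plot of percents use CPM over the total count. Other levels and percents use CPM with normalization factors unless another scale is named. Alternatives were DESeq2 size factors, DESeq2 1.42.0, voom with limma (the study's package, here in version 3.58.1), other filters, the replicate number as a block, only the libraries compared, subtraction of the macrophage share, and each library left out. The procedure was tested on simulated counts. No libraries of a group agreed within sampling noise (chi-square per degree of freedom 1.97 to 24.9). Totals of 15516465 to 25199770 counts leave genes under about 10 counts imprecise.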

Additional observations from a re-analysis of the deposited data

Results flagged for a closer look

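The label effect differed between 3T3 and BMDMs, by the interaction test across all genes, for 7 of the 9 complement genes and 5 of 26 further complement genes tested, all 5 receptors, each with the larger log2 fold change in 3T3. Over all genes 12.3% passed, 7.71% in that direction. The differences were 7.65 for C1qa, 7.32 for C1qb, 7.19 for C1qc, 5.61 for C3ar1, 6.04 for C5ar1, 1.79 for Cfp and 1.52 for C3. Among receptors of other lists they were 5.65 for Itgam, 2.91 for Cd93, 2.77 for Itgax, 1.97 for Itgb2 and 1.13 for C5ar2. With the macrophage share subtracted, the difference turned to -3.47 for Itgax (adjusted p = 0.149), -0.093 for C5ar2 (0.963) and -0.20 for C3ar1 (1.00), none of which passed. The others still passed, among them Cd93 at 1.76 and Itgb2 at 0.72, with the limit of the subtraction given above. Of these genes, the C1q chains had 0 counts left in WT medium and Itgam 0, 2 and 0, Itgax and C3ar1 had 0 left in PHD2cko medium, and for them the size of the fitted difference is not interpretable. With 1 library left out, the call was lost in 11 of 12 fits for Itgax (all but that without replicate 2 of 3T3 in PHD2cko medium) and in 9 of 12 for C5ar2. With limma-voom C1qb (7.09, adjusted p = 0.0563) did not pass, and neither did these receptors (1.84, adjusted p = 0.305 for Itgax and 1.06, adjusted p = 0.0825 for C5ar2), and with the replicate number as a block Itgax did not (2.76, adjusted p = 0.0784). Of these 12 genes, 11 are of the kind expressed far more strongly in BMDMs. In 3T3 in PHD2cko medium these 11 were higher, Itgax with overlap, as were 22 of the 23 macrophage markers. The part of the markers in the result was not tested. The exception is C3, which was above 80 CPM in all 12 libraries.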

How the results depend on the processing

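Each result was recomputed under 7 or 8 alternatives, and with each of 12 libraries left out. Of 270 log2 fold changes of the 9 genes under alternatives, 261 kept their direction and their side of the threshold, as did 421 of 432 with 1 library left out. In BMDMs the number of the 9 genes passing was 1, rose to 5 when only the BMDM libraries were fitted, and was between 0 and 4 with 1 library left out (0 without replicate 3 of WT or replicate 3 of PHD2cko, 2 without replicate 3 and 4 without replicate 2 of 3T3 in PHD2cko medium). Over all genes the same change of libraries moved the count from 961 to 2534 in BMDMs and from 2240 to 912 in 3T3, and leaving out 1 library gave 527 to 1889 and 1260 to 2757. The further complement genes passing in BMDMs were 2, and between 0 and 2 with 1 library left out (0 without replicate 1 of WT or replicate 3 of PHD2cko, 1 without replicate 2 or 3 of WT or replicate 1 or 2 of PHD2cko). With the macrophage share subtracted, C3ar1 in 3T3 had a log2 fold change of 0 and an interaction of -0.20 (adjusted p = 1.00). Values near 0 turned sign for Cfp in BMDMs without replicate 1 of WT (-0.0021) or of PHD2cko (-0.0097), within a range up to 0.064, and for the interaction of Cfb without replicate 2 of BMDM PHD2cko (-0.0052) or replicate 3 of 3T3 in PHD2cko medium (-0.094), within a range up to 0.76. The interaction of C1qb missed the threshold with limma-voom (7.09, adjusted p = 0.0563), and that of C1ra passed with DESeq2 (0.42, adjusted p = 0.0213) and without replicate 1 of BMDM WT (0.50, adjusted p = 0.0374). The mean macrophage share in PHD2cko medium was 1.72%, 1.62% against all 6 BMDM libraries, 1.43% with 4 defining markers and 1.36 to 2.30% with 1 library left out. With the longest transcript, Cfp in BMDM WT was at 84.3 CPM per kb. The cause of these changes was not tested.

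With the replicate number as a block, the count of the 9 genes passing was 1 in BMDMs and 7 in 3T3, and no call of the 9 genes changed. Of all 14285 genes, 395 passed as higher and 420 as lower in BMDMs in that fit, and 1116 and 837 in 3T3. Among the further complement genes named, the block ended the interaction call of Itgax (2.76, adjusted p = 0.0784). Libraries of equal number did not deviate together (correlations of their deviations from the group means between -0.0497 and 0.0242), so they share only a number.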
